A study of Mus musculus with 8 samples.

Results

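The 6 genes described here, Gm48704, Gm30790, Gm15513, Gm50022, Gm50222 and 0610033M10Rik, are long noncoding RNA (lncRNA) genes of mouse epidermis. They were chosen by measured values, namely counts at or near 0 in the RNA-seq libraries of mice without epidermal RORα, and they are 6 of 55416 genes counted and 6 of 574 lncRNA genes that passed the filter on low counts. RNA-seq was done on epidermis peeled after a short heat treatment from the dorsal skin of P4 pups (postnatal day 4), with 4 libraries per genotype. The RoraEKO libraries came from pups of the cross of a Rora flox/flox strain with a K14-Cre strain, in which Cre is driven by a keratin 14 promoter active in basal keratinocytes, so that Langerhans cells, T cells and melanocytes of the same tissue are not targeted. The control libraries are labelled WT, and whether these pups carried floxed alleles or Cre is not given in the sources used here. The paper states n = 4 per genotype for the P4 mice of the RNA-seq. The labels name neither litter, sex nor pooling, so the p-values measure the spread between these libraries, which no label ties to single pups.

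Long noncoding RNAs are transcripts without a long reading frame that are often spliced and polyadenylated like messenger RNAs and that are, as a class, more restricted to single tissues and less abundant than messenger RNAs. Some act on the chromatin or the genes beside them, others act elsewhere in the cell, and for most of them no function is known. They often start within or next to an enhancer or promoter that also serves a protein-coding gene, and many of their first exons come from transposable elements. RORα is a nuclear receptor that binds as a monomer to the ROR response element (RORE), a core hexamer AGGTCA after an A/T-rich stretch, and activates transcription. Its known targets include the clock genes Bmal1, Npas2 and Nr1d1.

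Library totals ranged from 17286903 to 26705533 counts. Levels are given in CPM (counts per 1000000 counts, scaled by TMM factors), on which 3 counts were worth 0.113 to 0.196 depending on the library. Rora itself was at 158, 193, 187 and 309 CPM for the controls A1, B1, C1 and C6, and at 154, 189, 237 and 206 CPM for the RoraEKO libraries A3, B4, C2 and C3. These gene-level values overlapped (edgeR quasi-likelihood test, log2 fold change -0.11 and adjusted p = 0.877) and so give no check of the genotype labels. Control replicates C1 and C6 had Xist, at 416 and 527 CPM, and no Ddx3y counts, and the other 6 libraries had Ddx3y. The keratinocyte markers summed to between 48600 and 74900 CPM in control libraries and to between 89900 and 112000 CPM in RoraEKO libraries, with none of the 10 markers called. No marker of another cell type that was listed and tested was called either. The erythroid markers summed to 18.1 to 106 CPM in control and 45.7 to 336 CPM in RoraEKO libraries and the neutrophil markers to 4.83 to 19.9 and 16.1 to 71.3 CPM, and the part of cell composition in the differences given next was not tested.

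All 6 genes were lower in every RoraEKO library than in every control library, and their summed level was 49.6 to 127 CPM in the control libraries and 0.205 to 0.964 CPM in the RoraEKO libraries. Gm48704 gave 75.1% to 84.1% of that sum in the control libraries. Of the 13147 genes tested, 7.54% had every RoraEKO library below every control library. A gene is called here when its adjusted p is under 0.05 and its fold change over 1.5 (edgeR quasi-likelihood test with Benjamini-Hochberg adjustment over all genes tested). By that rule 5.51% of the tested genes were called, 3.22% lower and 2.30% higher in RoraEKO (423 and 302 genes, but 335 and 367 without RoraEKO replicate A3), and the 6 lncRNA genes were all called lower. This contrast chose the genes, so nothing is read from those counts, and no p is given for any of the 6.

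**Figure D1:**
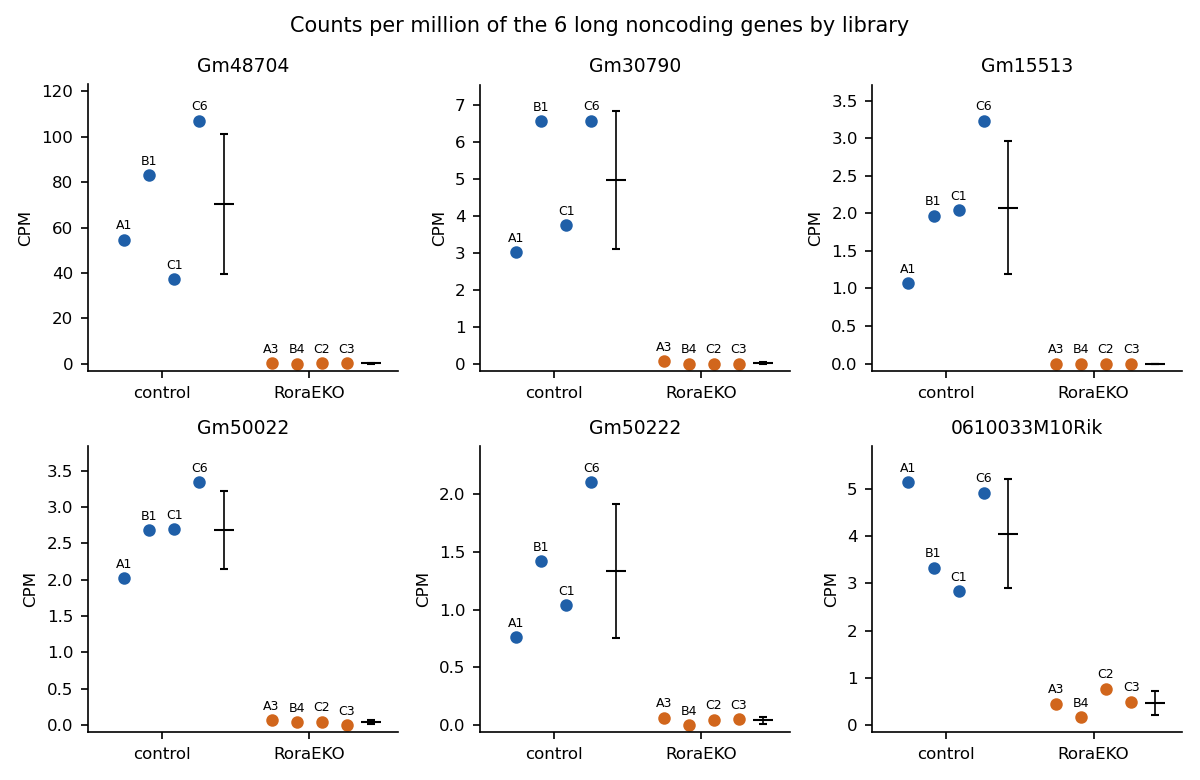
Level of each of the 6 lncRNA genes in CPM (linear axes from 0) in the 4 control (blue) and 4 RoraEKO (orange) libraries, with the replicate's name at each point; the black marks are the mean and SD of each group, with the lower bar ending at 0 where the SD exceeds the mean. The control points vary by up to 3.03-fold within a gene, and only 0610033M10Rik has RoraEKO points clearly off 0.

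Gm48704 (ENSMUSG00000114337) was the most abundant of them. It lies on chromosome 13 of GRCm39, chr13:35727885-35729467 on the plus strand, with 2 exons and 1171 exonic bases, and has no protein-coding gene within 100 kb. Its counts were 1438, 1521, 786 and 2844 for the controls A1, B1, C1 and C6, and 1, 0, 2 and 2 for the RoraEKO libraries A3, B4, C2 and C3. Every control library thus held at least 786 counts and no RoraEKO library more than 2. The level was 70.5 ± 30.7 CPM (SD, n = 4) in control and 0.0654 ± 0.0463 CPM (SD, n = 4) in RoraEKO. From the counts summed over each group, as for every percentage of control given here, RoraEKO was at 0.0871% of control (95% Clopper-Pearson interval 0.0283% to 0.203%), a 1150-fold difference with a counting interval of 492 to 3540. All intervals given for these genes cover counting error only.

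Gm30790 (ENSMUSG00000109333) spans chr16:76548681-76595723 on the minus strand, with 17 annotated transcripts and 4194 exonic bases. It had 79, 120, 79 and 175 counts for the controls A1, B1, C1 and C6, and 1 count in RoraEKO replicate A3 and 0 in the other RoraEKO libraries. The control level was 4.97 ± 1.87 CPM (SD, n = 4), and RoraEKO was at 0.253% of control (95% interval 0.0064% to 1.42%). The width of that interval comes from the single RoraEKO count.

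Gm15513 (ENSMUSG00000086291) lies at chr5:34369154-34371146 on the minus strand, inside an intron of Zfyve28 and on the same strand as that gene. Counts were 28, 36, 43 and 86 for the controls A1, B1, C1 and C6 and 0 in each RoraEKO library. Gm15513 was the only one of the 6 without a RoraEKO count. The control level was 2.07 ± 0.887 CPM (SD, n = 4), and the upper 95% bound of the RoraEKO level was 2.22% of control.

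Both genes on chromosome 17 were of low abundance. Gm50022 (ENSMUSG00000117379), at chr17:24998677-25000958 on the plus strand, had 53, 49, 57 and 89 counts for the controls A1, B1, C1 and C6 and 1, 1, 1 and 0 counts for the RoraEKO libraries A3, B4, C2 and C3. Its control level of 2.68 ± 0.54 CPM (SD, n = 4) varied least of the 6 between libraries, and RoraEKO was at 1.39% of control (95% interval 0.284% to 4.11%). Gm50222 (ENSMUSG00000117987), at chr17:31895763-31903348 on the minus strand, had 20, 26, 22 and 56 control counts and 1, 0, 1 and 1 RoraEKO counts in the same order. Its control level was 1.33 ± 0.58 CPM (SD, n = 4) and RoraEKO was at 2.78% of control (95% interval 0.565% to 8.31%). No RoraEKO library held more than 1 count of Gm50222.

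0610033M10Rik (ENSMUSG00000108236) did not meet the description of a gene nearly lost. It spans chr6:51377939-51410210 on the minus strand, with 11 annotated transcripts and 2606 exonic bases. Its counts were 135, 61, 60 and 131 for the controls A1, B1, C1 and C6 and 7, 4, 16 and 10 for the RoraEKO libraries A3, B4, C2 and C3. No RoraEKO library was at or under the floor of 3 counts. RoraEKO was at 11.0% of control (95% interval 7.61% to 15.4%). The mean levels were 0.473 ± 0.248 CPM in RoraEKO and 4.06 ± 1.14 CPM in control (SD, n = 4 each), and the lowest control library stood 3.68-fold above the highest RoraEKO library.

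Among the control libraries, replicate C6 had the highest level of 5 of the 6 genes and replicate A1 the lowest level of 4. For 0610033M10Rik the highest level was in A1. Control replicates A1 and B1, with at most 0.0546 CPM of Xist like the RoraEKO libraries, allow the comparison without C1 and C6. On those 6 libraries RoraEKO stood at 0.0936% of control for Gm48704, 0.278% for Gm30790, 0% for Gm15513, 1.63% for Gm50022, 3.61% for Gm50222 and 10.5% for 0610033M10Rik. The 95% interval for Gm50222 was then 0.719% to 11.2%. Because the genes were chosen for RoraEKO counts at or near 0, these percentages stay low whichever control libraries are left out. Nothing is read from them about the libraries that had Xist, whose part in the differences was not tested. In bulk tissue, fewer cells of a type and less RNA per cell cannot be told apart.

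Levels between genes are compared per kilobase of exon, on the CPM scale. Gm48704 stood at 60.2 ± 26.2 CPM per kb (SD, n = 4) in control epidermis and was the fourth most abundant of the 574 tested lncRNA genes. For scale, the nuclear lncRNAs Neat1 and Malat1 stood at 101 and 78.1 CPM per kb, the imprinted H19 at 24.1 and Norad, which binds Pumilio proteins, at 24.0. The other genes ranked from 77 (Gm50022, 2.29 ± 0.462 CPM per kb) to 216 (Gm50222, 0.717 ± 0.312 CPM per kb). Between these, 0610033M10Rik at 1.56 ± 0.438, Gm15513 at 1.32 ± 0.565 and Gm30790 at 1.18 ± 0.445 CPM per kb did not differ beyond their spread between libraries (SD, n = 4 each). All 6 are annotated as lncRNA in GENCODE.

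The 6 genes were not all of the lncRNA genes with such low RoraEKO levels. In the order of RoraEKO over control level, the median of the 574 tested lncRNA genes was 92.5%, and 5 genes that were not chosen stood below 0610033M10Rik. Gm26760, on chromosome 15, held 108 counts over the control libraries and 0 in each RoraEKO library. Gm45441 stood at 4.91% of control, Gm13536 at 5.55%, 5830416I19Rik at 7.53% and Gm47805 at 10.9%. The intervals of the last 3 overlapped that of 0610033M10Rik. Just above it came Slc6a19os at 11.6% and 1810028F09Rik at 11.9%, whose intervals overlapped its own. Of the 568 lncRNA genes that were not chosen, 20 were called lower and 15 higher, 6.16% in all against 5.51% of all tested genes. Among those called lower the smallest adjusted p values (edgeR quasi-likelihood test) belonged to Gm45441 (log2 fold change -4.31), Gm13536 (-4.14) and Slc6a19os (-3.11), and among those called higher to Gm19510 (2.58), Miat (3.53) and Gm33497 (2.52).

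**Figure D2:**
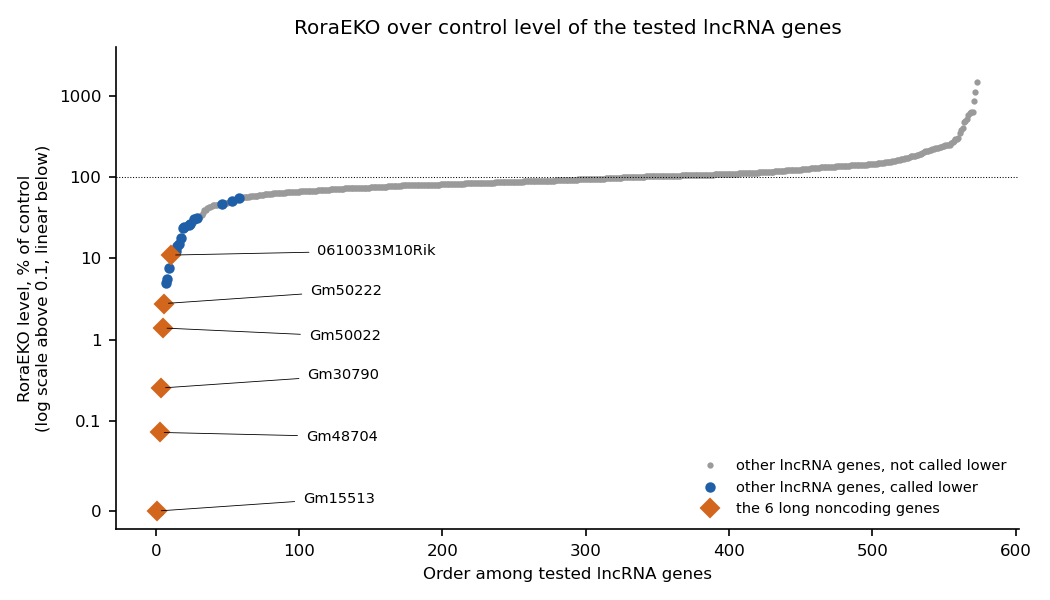
RoraEKO level as percent of control (vertical axis, logarithmic above 0.1 and linear below) of the 574 tested lncRNA genes in rising order (horizontal axis), from summed counts. The 6 chosen genes (orange diamonds) sit at the low end between 0% and 11.0%, mixed with other lncRNA genes called lower (blue), and most lncRNA genes (grey) lie near the dotted line at 100%.

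Of 13 widely known lncRNA genes, 10 were tested, none was called lower, beside 3.52% of the lncRNA genes that were not chosen, and 1, Miat, was called higher, from 4.80 ± 0.437 to 55.5 ± 27.5 CPM (SD, n = 4 each). The other 9 had log2 fold changes between -0.37 (H19) and 1.32 (Snhg11), none past the threshold. Tug1, one of them, is annotated as protein-coding in the release used.

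The protein-coding genes beside the 6 lncRNA genes were found by position alone and could be tested. Each lncRNA gene has a nearest protein-coding gene on either side, and 3 protein-coding genes overlap one of the 6. Of the 12 flanking genes 9 were tested, and 1 was called lower and none higher. All 3 overlapping genes were tested, and 2 were called lower. This compares with the 3.22% of all tested genes that were called lower.

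Zfyve28, which encodes a FYVE-domain protein of endosomes, is the host gene of Gm15513. It had 32, 15, 20 and 72 counts for the controls A1, B1, C1 and C6 and 0, 1, 1 and 0 counts for the RoraEKO libraries A3, B4, C2 and C3. Host gene and intronic lncRNA were thus both near 0 in RoraEKO, and the genotypes did not overlap (Zfyve28 log2 fold change -5.57, SE 0.397, adjusted p = 0.00248, edgeR quasi-likelihood test). Every SE printed beside a log2 fold change comes from the spread of log2 CPM with a prior count of 2, not from the fitted model. That prior narrows the spread between libraries near 0 counts, so the SE of Zfyve28 is understated. The exons of Zfyve28 and Gm15513 share no bases. Whether intronic reads of Zfyve28 transcripts contribute to Gm15513 was not tested. The flanking genes were Mxd4, a MAX-binding repressor at a distance of 23.9 kb with a log2 fold change of -0.64 (adjusted p = 0.0501), and Cfap99, which held 5 counts over the control libraries and 1 over the RoraEKO libraries and was not tested.

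Hs3st6, a heparan sulfate 3-O-sulfotransferase gene, ends 21.0 kb before Gm50022 on the same strand. It had 167, 293, 214 and 261 counts for the controls A1, B1, C1 and C6 and 2, 11, 3 and 8 counts for the RoraEKO libraries A3, B4, C2 and C3. The levels in CPM were at least 6.36 in control and at most 0.452 in RoraEKO libraries (log2 fold change -5.14, SE 0.434, adjusted p = 0.000244, edgeR quasi-likelihood test). On the other side, Meiob, a meiosis gene, had no count in any library. Of the 9 tested genes within 100 kb of Gm50022, Hs3st6 was the only one called.

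Cryaa, which encodes the small heat-shock protein αA-crystallin, lies wholly within the span of Gm50222 on the opposite strand, and 273 of its exonic bases are shared with exons of Gm50222. It stood at 2.25, 5.25, 2.22 and 3.57 CPM for the controls A1, B1, C1 and C6 and at 1.31, 0.493, 0.723 and 0.849 CPM for the RoraEKO libraries A3, B4, C2 and C3. Cryaa fell, and each RoraEKO library kept 12 to 20 counts of it (log2 fold change -1.99, SE 0.389, adjusted p = 0.017, edgeR quasi-likelihood test). Its call was lost without RoraEKO replicate C2, without RoraEKO replicate C3 and without control replicate B1 (adjusted p = 0.0673, 0.0569 and 0.0542), while its log2 fold change lay between -2.21 and -1.69 in every alternative. The library kit marks strand, but whether the counting used it is not given in the sources used here, so reads of the shared bases cannot be assigned with certainty. The flanking splicing factor gene U2af1 and the salt-inducible kinase gene Sik1 had log2 fold changes of -0.01 and -0.03, with adjusted p values of 0.987 and 0.958.

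At 0610033M10Rik no neighbour was called. Nfe2l3, a transcription factor gene of the NRF family, starts inside 0610033M10Rik and runs the other way, sharing 561 bases of gene body and 110 exonic bases. Its level was 31.4 to 55.0 CPM in control and 27.3 to 36.0 CPM in RoraEKO libraries, and the groups overlapped (log2 fold change -0.36, SE 0.193, adjusted p = 0.322). Hnrnpa2b1, an RNA-binding protein gene on its higher-coordinate side, had a log2 fold change of -0.15 (adjusted p = 0.687), and Npvf on the other side had no count.

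**Figure D3:**
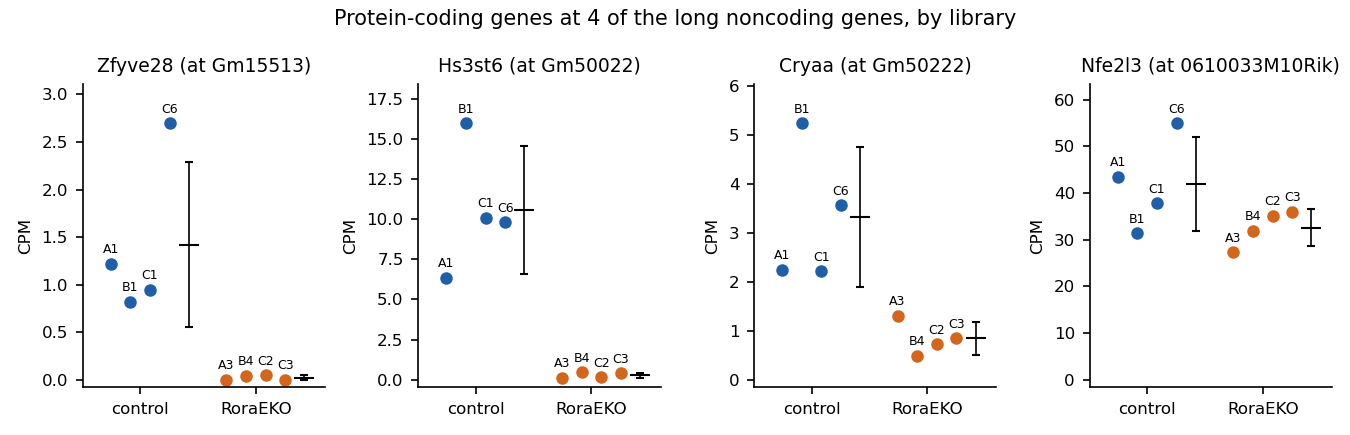
CPM (linear axes from 0) of the protein-coding genes overlapping or closest to 4 of the lncRNA genes in the 4 control (blue) and 4 RoraEKO (orange) libraries, with mean and SD in black and lower bars ending at 0 at most. Zfyve28 and Hs3st6 are near 0 in RoraEKO, Cryaa lies between 0.493 and 1.31 CPM there, and the Nfe2l3 groups overlap.

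Gm48704 and Gm30790 lie in gene-poor regions, and no tested gene lies within 100 kb of either. Beside Gm48704, Cdyl, a chromodomain corepressor gene 114.3 kb away, stood at 8.83 to 15.8 CPM in control and 6.13 to 8.34 CPM in RoraEKO libraries. These groups did not overlap, but the difference missed the threshold (log2 fold change -0.73, SE 0.196, adjusted p = 0.0578, edgeR quasi-likelihood test). Eci2, an enoyl-CoA isomerase gene on the other side, overlapped widely between genotypes (log2 fold change -0.16, adjusted p = 0.944). The genes flanking Gm30790, the nuclear receptor corepressor gene Nrip1 and the deubiquitinase gene Usp25, had log2 fold changes of -0.41 and 0.22 (adjusted p = 0.129 and 0.629). The Nrip1 groups did not overlap either, at 23.1 to 30.3 CPM in control and 16.2 to 21.1 CPM in RoraEKO libraries.

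Over a wider window, 82 tested genes other than the 6 lay within 500 kb of one of them, with a median log2 fold change of -0.04 that equals the median over all tested genes, and 6 of them (7.32%) were called, all lower, beside 5.51% of all tested genes called and 3.22% called lower. Besides Zfyve28, Hs3st6 and Cryaa these were Abca3, a lipid transporter (log2 fold change -1.50, 368.8 kb from Gm50022), Fgfr3, a fibroblast growth factor receptor (-1.01, 474.7 kb from Gm15513), and Ndufv3, a subunit of respiratory complex I (-0.79, 144.0 kb from Gm50222). The number was 3 without RoraEKO replicate C2, without RoraEKO replicate C3, without control replicate B1 and without control replicates C1 and C6. Without RoraEKO replicate A3 it was 5, 4 lower and 1 higher. Within 100 kb it was 3 of 20 tested genes, and within 1000 kb 8 of 137 (5.84%). No gene within 500 kb of Gm48704, Gm30790 or 0610033M10Rik was called. For comparison, a protein-coding gene called lower lay within 100 kb of 3 of the 6 lncRNA genes, of 8 of the 20 other lncRNA genes called lower, of none of the 15 called higher and of 49 of the 533 not called.

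**Figure D4:**
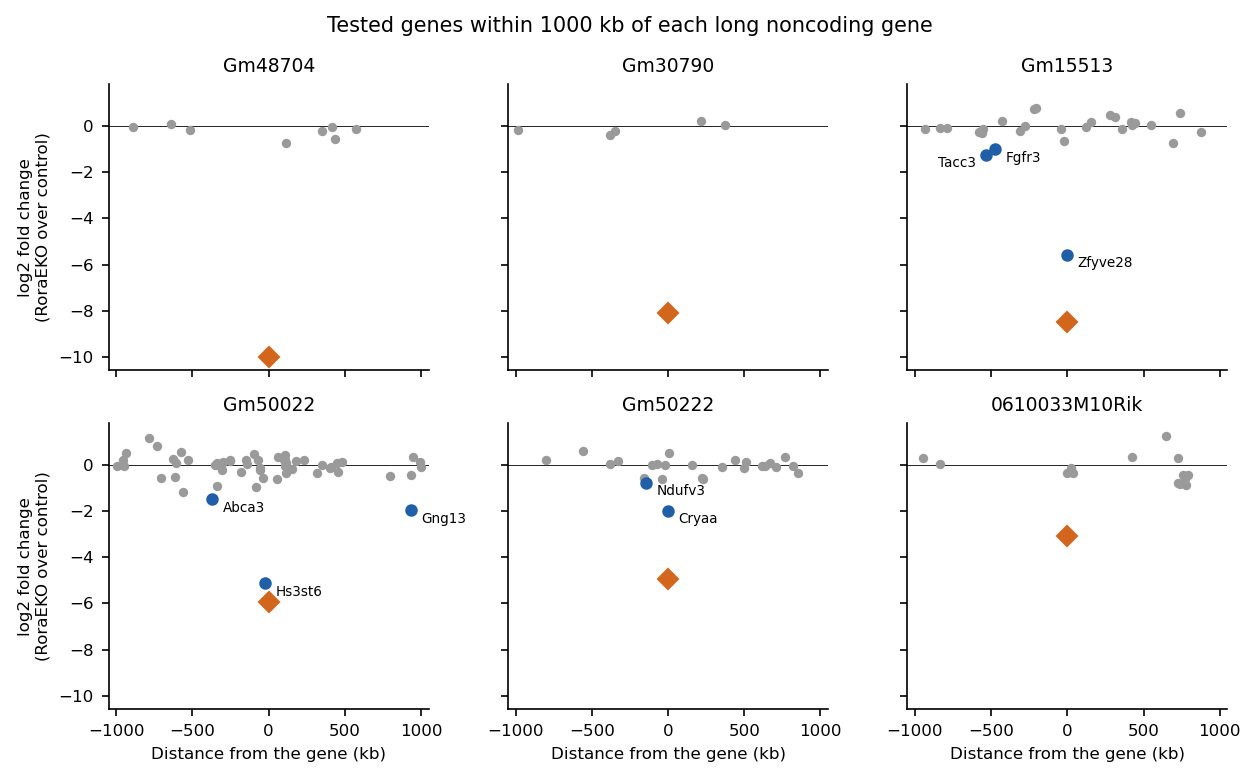
log2 fold change (RoraEKO over control) of tested genes within 1000 kb of each lncRNA gene, against distance in kb from the gene body (0 where it overlaps, negative towards lower coordinates). Orange diamonds are the lncRNA genes themselves, whose fitted values depend on the prior count where RoraEKO is at 0, blue points are genes called, all lower, and grey points are genes not called; Zfyve28 at -5.57 and Hs3st6 at -5.14 have the largest differences among them.

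The starts of several of the genes were found to share sequence, which was noticed after the values were seen. The stretch from -203 to +192 of the Gm48704 start (no position 0) has a copy at an internal transcript start of Gm30790, with 93.4% identity over 396 aligned positions, and another at an internal transcript start of 0610033M10Rik, with 86.6% identity over 389. In both genes the copy lies on the same strand and within 22 bases of the same register, so that the annotated transcript starts fall at nearly the same base of the shared sequence, as they do, within 50 bases, in 76 of the 117 tested genes with a copy. From these starts to the end of the exon are 111 bases in Gm48704, 110 bases in Gm30790 and 136 bases in 0610033M10Rik. Gm50022 has a shorter and more diverged copy, 72.1% identical over 136 aligned positions, from -207 to -73 of its start, and its first exon of 170 bases lies outside the copy. The copies are shown from their first aligned base, for at most 300 bases, because they are the feature that these genes share besides their level. Capitals in the last 3 mark bases identical to Gm48704, and capitals in Gm48704 mark bases identical in both long copies.
Gm48704, chr13:35727682-35727981, plus strand: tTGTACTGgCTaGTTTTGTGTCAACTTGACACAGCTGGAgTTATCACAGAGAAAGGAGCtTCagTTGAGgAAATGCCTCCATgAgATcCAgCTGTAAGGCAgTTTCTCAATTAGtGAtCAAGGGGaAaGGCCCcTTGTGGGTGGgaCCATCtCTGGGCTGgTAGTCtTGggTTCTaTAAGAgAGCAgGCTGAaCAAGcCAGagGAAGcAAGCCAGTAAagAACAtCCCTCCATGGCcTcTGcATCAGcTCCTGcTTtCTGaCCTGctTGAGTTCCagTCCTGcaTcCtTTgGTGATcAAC
Gm30790, chr16:76575885-76576184, minus strand: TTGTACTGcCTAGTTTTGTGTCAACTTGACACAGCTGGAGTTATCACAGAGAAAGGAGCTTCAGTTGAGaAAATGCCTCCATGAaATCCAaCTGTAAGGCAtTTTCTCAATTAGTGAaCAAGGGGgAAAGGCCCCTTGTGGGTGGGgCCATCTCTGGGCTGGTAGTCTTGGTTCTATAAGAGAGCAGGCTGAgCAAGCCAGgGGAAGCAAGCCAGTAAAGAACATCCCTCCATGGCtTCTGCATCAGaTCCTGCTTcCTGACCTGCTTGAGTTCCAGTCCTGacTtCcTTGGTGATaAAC
0610033M10Rik, chr6:51388728-51389027, minus strand: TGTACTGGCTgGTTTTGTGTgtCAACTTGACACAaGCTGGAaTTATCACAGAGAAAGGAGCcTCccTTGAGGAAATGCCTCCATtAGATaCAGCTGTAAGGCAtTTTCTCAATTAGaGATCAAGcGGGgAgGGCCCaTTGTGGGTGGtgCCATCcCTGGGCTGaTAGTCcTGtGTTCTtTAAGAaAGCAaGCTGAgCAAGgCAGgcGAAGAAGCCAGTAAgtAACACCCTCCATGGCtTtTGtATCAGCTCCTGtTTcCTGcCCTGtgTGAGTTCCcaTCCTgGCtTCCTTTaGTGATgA
Gm50022, chr17:24998470-24998604, plus strand: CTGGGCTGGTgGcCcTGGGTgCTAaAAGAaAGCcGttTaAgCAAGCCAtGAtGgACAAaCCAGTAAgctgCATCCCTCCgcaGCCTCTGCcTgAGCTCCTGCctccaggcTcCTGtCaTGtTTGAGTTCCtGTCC

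Such copies are not particular to these genes. With the same search (BLAST E value of at most 1e-05, same strand, 250 bases on each side of every annotated transcript start), 473 of 54747 genes had a copy (0.864%), as did 117 of 13115 tested genes (0.892%) and 10 of the 574 tested lncRNA genes (1.74%), 4 of which are the genes named above. The stretch searched for was the part of the Gm48704 start that aligns with Gm30790. Both genes are therefore in all these counts, and in the 76 of 117 given above, by construction. Gm48704 is counted there as its own copy. A gene with many annotated transcripts has more starts at which a copy can lie. Of the other 6 lncRNA genes with a copy none was called. Leaving the chosen genes out, 113 tested genes had a copy, with a median log2 fold change of -0.02, and 3 were called lower and 1 higher (3.54%, against 5.51% of all tested genes). The 3 were Npas2, a clock transcription factor gene (log2 fold change -6.92, copy 70.5% identical), Slc25a30, a mitochondrial carrier gene (-1.44, copy 93.9% identical over 396 positions), and Mkln1, which encodes muskelin (-0.64), and Lrrfip1 was higher (0.82). The Npas2 copy lies at an internal transcript start (chr1:39380636), not at the gene start (chr1:39232705). Of 15 tested genes whose copy was at least as identical as that of Gm30790, 1 was called, Slc25a30. No repeat annotation was used here. The first exon of Gm48704 lies inside the shared stretch, and whether reads there were shared with copies elsewhere by RSEM was not tested.

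**Figure D5:**
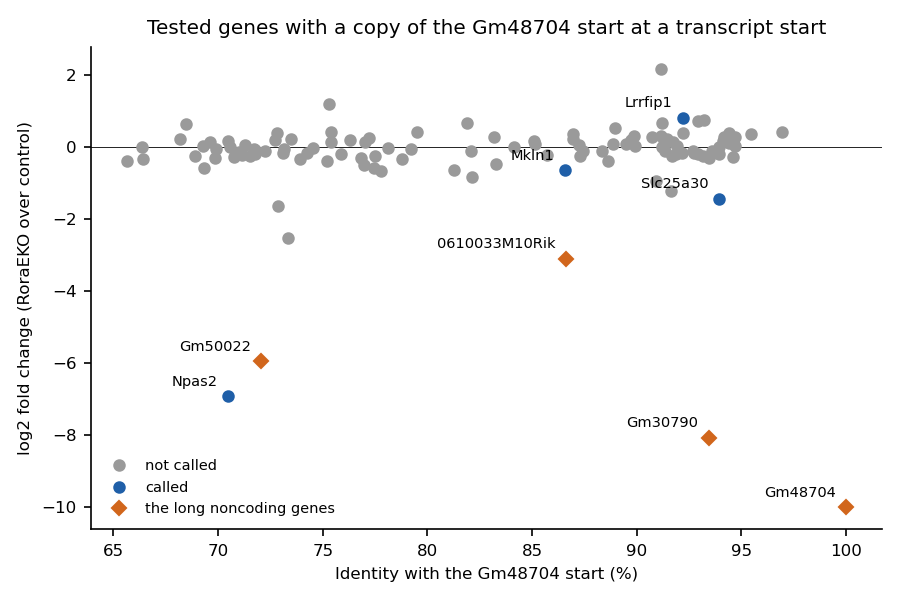
log2 fold change (RoraEKO over control) of the 117 tested genes with a copy of the Gm48704 start at one of their transcript starts, against the identity of the copy in percent. Most genes (grey) lie near 0 at every identity, 4 others were called (blue), and the lncRNA genes (orange diamonds) lie between -3.10 and -10.01. Gm48704 stands at 100% as its own copy.

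The RORE core AGGTCA, searched on both strands, was not found in the 300 bases around the gene start, the outermost annotated one (250 before and 50 after), of any of the 6 lncRNA genes. Of all promoters of that length 16.3% hold it, and of those of tested lncRNA genes 16.2%, beside the 0 of 6 found here, which says nothing of RORα binding. In a window of 1000 bases on each side 4 of the 6 genes had a match, against 67.8% of tested lncRNA genes. Gm48704 had the core on the opposite strand at +56 to +61, just past the shorter window, and its copy at Gm30790 had the core at the corresponding place, +55 to +60 from that internal start, whereas the printed copies at 0610033M10Rik and Gm50022 do not hold these letters. The 50 bases from +31 are shown with the core, in its opposite-strand letters, in capitals.
Gm48704, chr13:35727915-35727964, plus strand: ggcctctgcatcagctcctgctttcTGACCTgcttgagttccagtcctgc
Gm30790, chr16:76575901-76575950, minus strand: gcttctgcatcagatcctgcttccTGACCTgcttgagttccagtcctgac
The longer form TAGGTCA, which contains the core, was absent from the 300 bases at all 6 gene starts, and in the 2000-base window around them it was present in 1 of the 6 genes, Gm48704, against 14.6% of tested lncRNA genes. Over every annotated transcript start of a gene, with the same 300 bases, 2 of the 6 genes had the core, Gm30790 at -68 of another internal start and 0610033M10Rik at -42 and -10 of an internal start, against 40.2% of tested lncRNA genes. The match at Gm30790 was of the longer form, which 10.8% of tested lncRNA genes had at any start. A match in letters is a description and not a binding site.

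Genes with the most similar pattern over the 8 libraries are given as a description, since all these correlations run over the same 4 control and 4 RoraEKO libraries and thus carry the difference between genotypes. For each gene the 3 tested genes with the highest Pearson correlation of log2 CPM were taken, and all of these were themselves called lower. Ttc9, a gene of a tetratricopeptide repeat protein, was among the 3 for Gm48704, Gm30790, Gm15513 and Gm50022 (r = 0.995, 0.999, 0.994 and 0.994). Gm48704 was also close to Ptprm, a receptor phosphatase gene (0.996), and Mad2l2 (0.996). Gm30790 was followed by Sdc4, the gene of syndecan 4 (0.997), and Bmal1 (0.995), and Gm15513 by Fnta (0.995) and Pdzrn4 (0.994). For Gm50022 the others were Slc46a1, a folate transporter gene (0.996), and Snx21 (0.994), and for Gm50222 they were the ceramidase gene Acer2 (0.998), Bmal1 (0.995) and the tetraspanin gene Cd151 (0.994). 0610033M10Rik had other nearest genes, Fam83e (0.994), AU021092 (0.991) and Tead2 (0.990).

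Of 7 clock genes known as RORE targets or as their partners, 4 were called lower and none higher, beside 3.22% and 2.30% of all tested genes. Npas2, the partner of BMAL1, had 64, 72, 83 and 116 counts for the controls A1, B1, C1 and C6 and 0, 2, 0 and 0 counts for the RoraEKO libraries A3, B4, C2 and C3, a pattern like that of Gm30790. Nr1d1, which encodes the repressor REV-ERBα, went from 18.2 ± 4.87 to 1.10 ± 0.351 CPM, and Bmal1 from 17.6 ± 3.74 to 3.32 ± 0.589 CPM (SD, n = 4 each; adjusted p = 0.000112 and 0.000238, edgeR quasi-likelihood test). Both kept levels in RoraEKO above the floor of 3 counts in every library, as did Nr1d2 (2.68 to 3.28 CPM, adjusted p = 0.00173). Clock, Cry1 and Nfil3 did not pass the test, with log2 fold changes of -1.21, 0.24 and -1.01.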

How the data were processed

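RNA-seq was performed on P4 mouse dorsal epidermis in 8 libraries, 4 control and 4 RoraEKO. The authors deposited RSEM expected counts per gene, which were made from polyA-selected TruSeq Stranded mRNA libraries by bcl2fastq v2.20.0.422, read trimming, STAR v2.5.3a mapping to GRCm39 and RSEM. The strand setting and the annotation release are not given in the sources used here. RSEM divides reads that match several places among them, which bears on genes with near-identical copies.

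Expected counts were rounded to whole numbers, and gene IDs were matched to GENCODE M39 on GRCm39 (54749 of 55416 genes found). Genes were filtered with filterByExpr, normalised by TMM and tested by the quasi-likelihood test of edgeR v4.0.16 in R v4.3.3 over 13147 genes, with Benjamini-Hochberg adjustment, an adjusted p under 0.05 and a fold change over 1.5. CPM values use no prior count, and correlations use log2 CPM with a prior count of 2. The SE values were taken from the same log2 CPM values, as the SE of the difference between group means. They are too small for genes near 0 counts in RoraEKO. On simulated counts with 194 changed genes among 12923 tested, 85.6% were called and 5.14% of the calls were false. Each changed gene was given a log2 fold change of 2 in either direction, so the recovery of smaller changes was not tested. Intervals cover counting error only, and the total counts set the precision. Transcript starts were compared by BLAST v2.17.0 with a word size of 7, and plots were drawn with matplotlib v3.10.9.

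The 6 genes, the gene lists and the tests were chosen with earlier results of these data known. Genes were named by a rule: Rora, the 6 genes, their overlapping and nearest protein-coding genes, the 3 genes with the most similar pattern, the 3 other lncRNA genes lowest in adjusted p for either direction, those next to them in order of RoraEKO level, 13 widely known lncRNAs and 7 clock genes. A further gene of the list is not reported here. Genes called within 500 kb, genes with a copy of the Gm48704 start and the pair of Gm26760 and Pdzrn4 were named after their values were seen. Alternatives covered normalisation, test, filter, covariates, windows and left-out libraries.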

Additional observations from a re-analysis of the deposited data

Results flagged for a closer look

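Of 35 groups of 4 libraries, 4 held a library whose gap to the others exceeded Dixon's 95% critical share of the group's range. Chance alone flags about 1 group in 20 for normally distributed values, a rate that need not hold for groups near 0 counts. For Gm30790, RoraEKO replicate A3 stood at 0.0653 CPM, from 1 count, where the other 3 RoraEKO libraries were at 0. A group with all other libraries at 0 is flagged whatever the size of the remaining value, so nothing is read from this flag. For Eci2, control replicate A1 stood at 17.6 CPM and the other controls at 3.17 to 5.14 CPM. For Nrip1, control replicate C6 stood at 30.3 CPM and the other controls at 23.1 to 23.8 CPM. For Mxd4, control replicate C1 stood at 29.7 CPM and the other controls at 42.4 to 44.9 CPM.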

How the results depend on the processing

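The RoraEKO levels of the 6 genes, as percent of control, moved by at most the SD between RoraEKO libraries in all 66 recomputed values. For genes with RoraEKO counts near 0 this could hardly come out otherwise. The level of Gm15513 was 0% throughout, and that of Gm30790, from 1 RoraEKO count, ranged from 0% to 0.363%. Zfyve28 and Hs3st6 kept their calls in all 19 alternatives that tested them. The count of called genes, 725 as reported, was 457 to 896 with 1 library left out (457 without control replicate B1, 475 without RoraEKO replicate C3) and 314 without control replicates C1 and C6, an alternative chosen after seeing the data. Of the nearest and overlapping protein-coding genes, 3 as reported, 5 were called by DESeq2, by the exact test, by the likelihood ratio test and with the title letter as a replicate block, and 1 of 10 with at least 10 counts in every library, a filter that leaves out genes near 0 in RoraEKO such as Zfyve28 and Hs3st6. The range with 1 library left out was 2 to 4. The genes gained were Cdyl and Mxd4. Within 500 kb, 6 as reported, the count was 3 to 8 with 1 library left out, 3 without C1 and C6, and 3 in the 100-kb window. Of the other lncRNA genes, 35 as reported, 55 were called by DESeq2 and by the exact test, 59 by the likelihood ratio test, 23 with Xist as covariate, 19 with at least 10 counts in every library, 15 without C1 and C6, and 25 to 41 with 1 library left out. Cryaa lost its call without C1 and C6 (adjusted p = 0.0695, edgeR quasi-likelihood test). The AGGTCA core was found at 4 of the 6 genes in the wider window and at 2 when any annotated transcript start counted, an alternative also added after seeing the data. Signs turned for Eci2, U2af1, Sik1 and Hnrnpa2b1, none of which was called in any of the alternatives. The log2 fold change of Eci2 was 0.10 with the replicate block and ranged from -0.41 to 0.73 with 1 library left out. That of U2af1 was 0.02 with DESeq2 and with RLE size factors, 0.04 with the filter at 1 count, 0.03 without C1 and C6, and -0.06 to 0.07 with 1 library left out. That of Sik1 was 0.00 with DESeq2 and RLE, 0.02 with the filter at 1 count, and -0.08 to 0.04 with 1 library left out. That of Hnrnpa2b1 was 0.04 with Xist as covariate and 0.06 without C1 and C6. Where no construction of an alternative accounts for a change, the cause was not tested. The letter in the titles is not a stated pairing, and the genotypes share no replicate numbers. At this depth 0 counts of a gene do not mean its absence. With 0 counts of Gm15513, the 95% Poisson interval reached 0.241, 0.152, 0.178 and 0.184 CPM for the RoraEKO libraries A3, B4, C2 and C3. Each limit lies above the worth of 3 counts in the same library, which was 0.113 to 0.196 CPM over all libraries.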

Other observations

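Gm26760, a lncRNA gene outside the chosen 6, lies beside Pdzrn4 without overlapping it. Gm26760 (chr15:92242192-92289830, plus strand) had 14, 15, 39 and 40 counts for the controls A1, B1, C1 and C6 and none in any RoraEKO library (adjusted p = 0.00771, edgeR quasi-likelihood test). On the same strand, Pdzrn4, a gene of a PDZ and RING finger protein, had 29, 44, 68 and 93 counts for the same controls and 0, 1, 1 and 1 counts for the RoraEKO libraries A3, B4, C2 and C3 (log2 fold change -5.90, SE 0.39, adjusted p = 0.000597). Pdzrn4 was also among the 3 genes most like Gm15513. This pair was chosen after its values were seen.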
